A study of Mus musculus with 12 samples.

Results

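The genes described here encode splicing factors and heterogeneous nuclear ribonucleoproteins (hnRNPs) in mouse liver. They were taken by symbol, as every row of the deposited gene table whose mouse symbol begins with Srsf, Sf3a, Sf3b, Snrp, Hnrnp or Prpf. Of the 48795 rows, 69 had such a symbol. The 3 rows with a pseudogene symbol ending in -ps were left out, and so was *Srsf12*, which had 8 counts summed over the 12 livers against a minimum of 10. The remaining 65 genes comprised 10 *Srsf*, 9 *Sf3a* or *Sf3b*, 13 *Snrp*, 20 *Hnrnp* and 13 *Prpf* genes. All 65 were among the 13812 genes with enough counts to be tested.

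Livers came from 12 female mice aged 4 months, bred from *Nts*+/- parents and kept on normal chow, with 3 mice in each of 4 groups. *Nts* encodes neurotensin, a peptide hormone of gut and brain. Mice were labelled wild type (*Nts*+/+, called WT-labelled here) or whole-body knockout (*Nts*-/-, KO-labelled), and were either fed freely or fasted for 22 h. The groups were WT-labelled fed (mice 254, 257 and 323), WT-labelled fasted (265, 282 and 322), KO-labelled fed (277, 303 and 319) and KO-labelled fasted (284, 290 and 295), and values below follow this order.

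Counts of *Nts* itself went against the genotype labels. They were 0 in all 6 WT-labelled livers. They were 46, 40 and 15 in the KO-labelled fed livers and 12, 4 and 18 in the KO-labelled fasted livers. Every direction between genotypes below is therefore a direction between labels. The comparison of fasted with fed livers, when averaged over genotypes, gives both labels equal weight. It would be unchanged if WT and KO were exchanged for all mice, but its spread is estimated within the labelled groups.

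Libraries held between 21999647 and 45273069 counts. Of these, between 0.317% and 0.385% fell on the 65 genes, with mouse 290 at the upper end. Averaged over genotypes, 8 of 10 listed fasting-induced genes were higher and 9 of 10 listed lipogenic and glycolytic genes lower after fasting, at an adjusted *p* under 0.05. Over all genes tested, 16.0% were higher and 16.8% lower. The lists were chosen with earlier results of these data known. Hepatocyte markers summed to between 117303 and 151077 CPM (counts relative to the scaled library total). The summed level of 6 sinusoidal endothelium markers was 143.6 to 208.2 CPM in fed livers and 123.5 to 150.9 CPM in fasted livers, and that of 6 stellate cell markers was 225.9 to 291.9 and 206.1 to 238.1 CPM. At an adjusted *p* under 0.05 on average, 3 of the 6 endothelium markers were lower after fasting and 1 higher. Of the 6 stellate cell markers, 4 were lower and 0 higher. Cholangiocyte markers summed to 33.5 to 49.9 CPM in fed livers and 13.8 to 29.7 CPM in fasted livers. Most of this sum was *Spp1*, at 27.6 to 43.5 CPM in fed and 10.7 to 25.4 CPM in fasted livers. It was the only 1 of the 4 cholangiocyte markers tested that passed on average. No marker of these lists was at 0 throughout a group, and the part of these cells in the results below was not tested.

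Splicing removes introns from pre-mRNA in a cycle of small nuclear ribonucleoproteins (snRNPs). U1 marks the 5′ splice site, U2 marks the branch point through its SF3a and SF3b subcomplexes, and the U4/U6.U5 tri-snRNP, with several PRPF proteins, completes the active spliceosome. Sm proteins form the ring that holds each snRNA. SR proteins, encoded by *Srsf* genes, mostly promote the use of exons, and hnRNPs bind nascent RNA and often oppose them. Many SR protein and hnRNP genes hold down their own mRNA by splicing in exons that lead to its decay. In liver, feeding and fasting are thought to change splicing through the phosphorylation of SR proteins as well as through transcription.

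Levels spanned a wide range. Divided by transcript length, the highest mean level of each family was 90.2 CPM per kilobase for *Hnrnpa2b1*, 47.4 for *Prpf19*, 44.5 for *Srsf5*, 43.4 for *Snrpb* and 30.1 for *Sf3b2*. *Hnrnpa2b1* encodes an abundant hnRNP that packages nascent transcripts, and *Prpf19* a ubiquitin ligase of the active spliceosome. The lowest gene by CPM was *Snrpert*, with a mean of 0.637 CPM, which the table describes as a pseudogene of *Snrpe* and which lies inside *Rnf24*. Its counts are uncertain on both grounds. The median within-group SD on the log2 scale was 0.19 over the 65 genes and 0.24 over all genes tested, at median levels of 26.7 and 11.4 CPM.

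**Figure D1:**
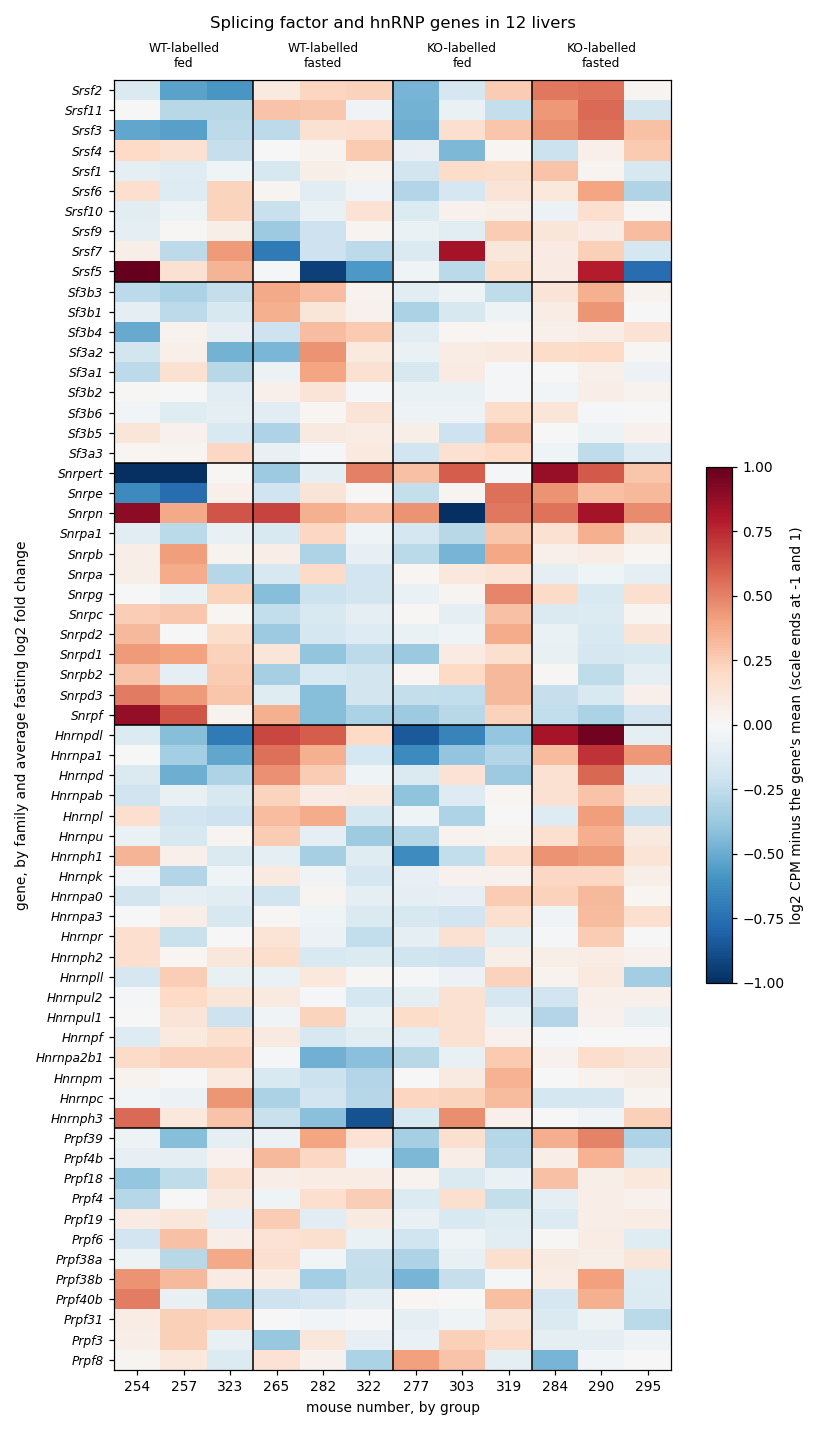
Heatmap of 64 of the 65 genes (rows, grouped by family and ordered by the average fasting change) in the 12 livers (columns, by mouse number and group), as log2 CPM minus each gene's mean, with colours ending at -1 and 1. *Hnrnpdl*, *Hnrnpa1* and *Srsf2* are mostly blue in fed and mostly red in fasted livers, with exceptions such as fed mouse 319 for *Srsf2* (0.25) and fasted mouse 322 for *Hnrnpa1* (-0.18), and *Snrpn* in mouse 303 (-6.05) and *Snrpert* in mice 254 and 257 (-1.56 and -1.14) lie beyond the blue end of the scale.

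The first question was what 22 h without food did to these genes. Averaged over both genotypes, 10 genes were higher and 5 lower in fasted livers at an adjusted *p* under 0.05, so that 15 of 65 passed. Over all genes tested, 32.8% passed, 16.0% higher and 16.8% lower, and the share among the splicing genes was 23.1%. *Hnrnpdl*, *Hnrnpa1*, *Srsf2*, *Srsf11*, *Srsf3*, *Hnrnpd*, *Sf3b3*, *Sf3b1* and *Hnrnpab* were among those that rose. *Hnrnph3*, *Hnrnpc*, *Snrpd3*, *Snrpb2* and *Snrpc* fell. Without mouse 290 the count of genes past the threshold was 9, and with upper-quartile normalization it was 10 higher and 8 lower. The median log2 fold change was 0.04, beside -0.01 over all genes, and the median size of the change was 0.19, beside 0.27. In whole liver RNA, fewer cells of a type and less RNA per cell cannot be told apart.

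In WT-labelled mice alone, 3 genes rose (*Hnrnpdl*, *Sf3b3* and *Srsf2*) and 4 fell (*Hnrnpa2b1*, *Hnrnph3*, *Snrpd1* and *Snrpd3*). Over all genes tested 18.1% passed there, 8.91% higher and 9.19% lower. In KO-labelled mice alone, *Hnrnpdl* and *Hnrnpa1* rose, 2 genes, and 0 fell, beside 16.8% of all genes, 7.70% higher and 9.14% lower. The WT-labelled split was 2 higher and 5 lower with upper-quartile normalization, 5 and 3 with no filter on low counts, and 4 and 3 in a fit of only the mice compared. The WT-labelled count was 2 without mouse 282, and the KO-labelled count was 5 without mouse 319. For 5 of the 65 genes every fasted liver stood above every fed liver, among them *Hnrnpdl*, *Hnrnpab*, *Sf3b1* and *Sf3b3*, and for 0 every fasted liver stood below. Over all genes these shares were 8.05% and 7.83%.

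**Figure D2:**
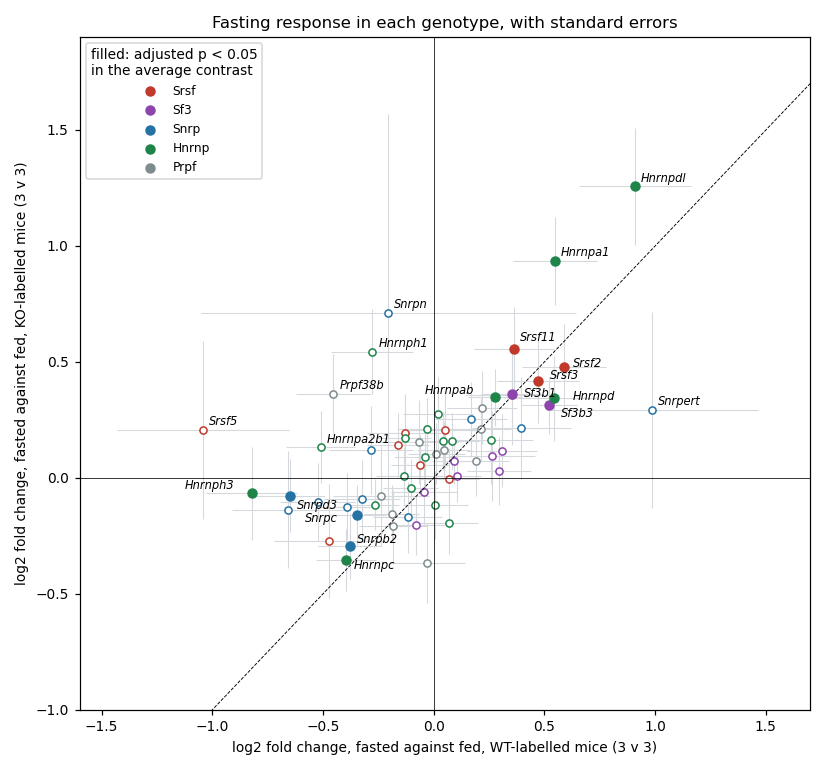
Log2 fold change of fasted against fed livers in WT-labelled mice (x axis) and in KO-labelled mice (y axis) for 64 of the 65 genes, coloured by family, with standard errors as grey bars. Filled points passed the threshold in the average contrast, and the dashed line marks equal change. *Hnrnpdl*, at 0.91 and 1.26, lies furthest to the upper right, and *Hnrnph3*, at -0.82 and -0.07, lies well to the left of the line.

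Among the SR protein genes, 3 of 10 rose with fasting and 0 fell, a share of 30% beside 32.8% of all genes. *Srsf2* encodes SC35, a nuclear speckle protein that binds exonic enhancers. Its level was 67.2, 51.2 and 49.6 CPM in WT-labelled fed livers, 79.5, 86.2 and 86.9 CPM after fasting, 53.9, 66.2 and 88.6 CPM in KO-labelled fed livers, and 106.9, 108.0 and 75.5 CPM after fasting. The ranges did not overlap in WT-labelled mice, and in KO-labelled mice fed mouse 319 stood above fasted mouse 295. The average log2 fold change was 0.53 (SE 0.13, adjusted *p* = 0.00769), a ratio of 1.45. In WT-labelled mice alone it was 0.59 (adjusted *p* = 0.0452), a call lost with upper-quartile normalization and without mouse 257, 323, 265, 282 or 322, with adjusted *p* up to 0.136. *Srsf2* overlaps *Mettl23* and *Mfsd11*, whose counts came to 21.1% and 13.5% of its own.

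*Srsf3* encodes the smallest SR protein, which also takes part in mRNA export. Its level was 50.05, 49.1 and 59.9 CPM in WT-labelled fed livers, 59.8, 79.9 and 80.5 CPM after fasting, 51.0, 80.4 and 87.1 CPM in KO-labelled fed livers, and 99.1, 104.8 and 88.0 CPM after fasting. KO-labelled fasted livers stood above the other groups, and fed mice 303 and 319 reached the level of WT-labelled fasted mice. The average log2 fold change was 0.44 (SE 0.13, adjusted *p* = 0.0182). *Srsf11*, whose product binds the U1 and U2AF complexes, rose by 0.46 on the log2 scale (SE 0.13, adjusted *p* = 0.0141), with the fed and fasted ranges overlapping in both genotypes. The average calls of these 3 genes held under every alternative tried.

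The other 7 *Srsf* genes did not pass in any contrast. *Srsf1*, which encodes the first SR protein described, had an average log2 fold change of 0.03 (SE 0.10). *Srsf5* was the most variable of the 10 between mice of a group. Its level was 164.1, 85.9 and 98.2 CPM in WT-labelled fed livers, 76.8, 40.6 and 51.9 CPM after fasting, 75.1, 64.3 and 86.7 CPM in KO-labelled fed livers, and 81.8, 133.7 and 45.6 CPM after fasting. WT-labelled fed and fasted ranges did not overlap, whereas KO-labelled fasted mice took values on both sides of the fed ones.

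Among the SF3 genes, *Sf3b3* and *Sf3b1* rose and 0 of 9 fell, a share of 22.2% beside 32.8% of all genes. *Sf3b1* encodes the subunit that clamps the branch point, and *Sf3b3* a scaffold of the same subcomplex. *Sf3b1* stood at 96.3, 85.8 and 92.2 CPM in WT-labelled fed livers, 132.0, 112.0 and 106.4 CPM after fasting, 82.7, 92.2 and 99.5 CPM in KO-labelled fed livers, and 108.6, 140.2 and 103.3 CPM after fasting. All 6 fasted livers were above all 6 fed livers, with mouse 290 highest. The log2 fold change was 0.36 on average (SE 0.10, adjusted *p* = 0.0134), at 0.35 in WT-labelled and 0.36 in KO-labelled mice.

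*Sf3b3* stood at 29.7, 28.5 and 30.2 CPM in WT-labelled fed livers, 46.4, 44.1 and 36.4 CPM after fasting, 33.0, 34.5 and 29.9 CPM in KO-labelled fed livers, and 39.0, 45.7 and 36.4 CPM after fasting. All 6 fasted livers were again higher, and the fed WT-labelled livers were closely spaced (29.5 ± 0.837 CPM, SD, n = 3). The average log2 fold change was 0.42 (SE 0.09, adjusted *p* = 0.00256). In WT-labelled mice alone it was 0.52 (adjusted *p* = 0.0112), and in KO-labelled mice 0.31, which did not pass. *Sf3b3* overlaps *Cog4*, whose counts came to 169.8% of its own, and whether reads were assigned by strand is not given in the sources used here. *Sf3b2*, another subunit of SF3b, had the smallest within-group SD of the 65 genes (0.06 on the log2 scale), and its average log2 fold change was 0.08 (SE 0.07).

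The *Snrp* genes encode the proteins of the snRNPs themselves, and here 3 of 13 fell and 0 rose, a share of 23.1% beside 32.8% of all genes. Their median log2 fold change was -0.21 on average, -0.33 in WT-labelled and -0.09 in KO-labelled mice. *Snrpd3* encodes an Sm ring protein. It stood at 46.5, 43.5 and 39.2 CPM in WT-labelled fed livers, 29.8, 24.1 and 28.6 CPM after fasting, 27.5, 27.4 and 40.7 CPM in KO-labelled fed livers, and 27.7, 29.2 and 33.6 CPM after fasting. WT-labelled fed livers were higher than WT-labelled fasted ones without overlap, whereas fed KO-labelled mice 277 and 303 were at the fasted level. The log2 fold change was -0.65 in WT-labelled mice (SE 0.16, adjusted *p* = 0.0130) and -0.08 in KO-labelled mice (SE 0.16, adjusted *p* = 0.786), and the test of the difference gave 0.57 (SE 0.22, adjusted *p* = 0.897). The average call was lost without mouse 254, 282, 284 or 290, with adjusted *p* from 0.0536 to 0.0727, and the WT-labelled call without 254 or 282. *Snrpd3* overlaps *Gucd1*, whose counts came to 496.6% of its own.

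*Snrpb2*, whose product binds U2 snRNA, stood at 14.7, 11.3 and 14.4 CPM in WT-labelled fed livers, 9.5, 10.8 and 10.6 CPM after fasting, 12.2, 13.8 and 15.1 CPM in KO-labelled fed livers, and 12.1, 10.1 and 11.3 CPM after fasting. Fed and fasted ranges did not overlap within either genotype, although mouse 254, 265 or 290 left out raised the adjusted *p* to 0.0529 or more. Averaged over genotypes, the log2 fold change was -0.34 (SE 0.10, adjusted *p* = 0.0203). *Snrpc*, which encodes the C protein of U1 at the 5′ splice site complex, fell by 0.25 on the log2 scale (SE 0.09, adjusted *p* = 0.0488). That call was lost under 13 of 17 alternatives, with adjusted *p* up to 0.121. *Snrpd1*, an Sm ring gene, passed in WT-labelled mice alone (-0.52, SE 0.17, adjusted *p* = 0.0440), and lost the call without mouse 254, 257, 282 or 322, with no filter on low counts, and in a fit of only the mice compared, with adjusted *p* up to 0.1805.

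Grouped by role, the Sm ring genes comprised *Snrpb*, *Snrpd1*, *Snrpd2*, *Snrpd3*, *Snrpe*, *Snrpf*, *Snrpg* and *Snrpn*. In WT-labelled mice 7 of these 8 were lower after fasting, 2 of them past the threshold, with a median log2 fold change of -0.36. Over all genes tested there, 6938 of 13812 were lower, 9.19% past the threshold, with a median of -0.00. In KO-labelled mice 5 of 8 were lower, 0 past the threshold, with a median of -0.08. Among those higher there was *Snrpn* (0.71, SE 0.86), which was at 0 in fed mouse 303. *Snrpe* was the member higher after fasting in WT-labelled mice, at a log2 fold change of 0.40 (SE 0.22) that did not pass. The mean of the ring genes other than *Snrpn*, centred for each gene, was 0.15 to 0.23 in WT-labelled fed livers and -0.26 to -0.08 in WT-labelled fasted livers. KO-labelled fed mice spread from -0.23 to 0.36 and KO-labelled fasted mice from -0.08 to 0.05.

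**Figure D3:**
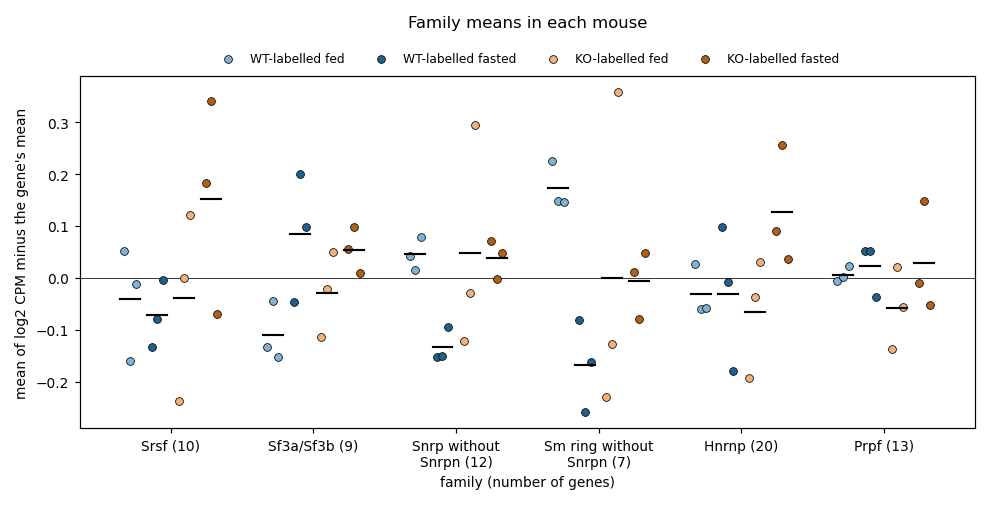
Mean over the genes of each family (x axis, with the number of genes) of log2 CPM minus the gene's mean (y axis), with 1 point per mouse, coloured by group, and a bar at the group mean. *Snrpn* is left out of its families because it was at 0 in mouse 303. The Sm ring genes of WT-labelled fed livers lie between 0.15 and 0.23 and those of WT-labelled fasted livers between -0.26 and -0.08, while fed KO-labelled mouse 319 reaches 0.36.

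*Snrpn* encodes the tissue-restricted counterpart of the Sm protein of *Snrpb* and is expressed from the paternal allele only. It had 0 counts in KO-labelled fed mouse 303, and between 146 and 269 counts in the other 11 livers. In the other 2 KO-labelled fed livers it had 237 and 164 counts. Among all genes of the table, it was the only one at 0 in mouse 303 with at least 100 counts in each of the other 11 livers, and in the other libraries 0 genes had this pattern. Its fasting log2 fold change of 0.71 in KO-labelled mice had an SE of 0.86 and did not pass.

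The *Hnrnp* family held both the largest rise and the largest fall past the threshold, with 4 of 20 higher and 2 lower, together 30% beside 32.8% of all genes. *Hnrnpdl* (ENSMUSG00000029328, chromosome 5, 100033577 to 100039664 in GRCm38) encodes a relative of the AU-rich element binding protein AUF1. It stood at 36.8, 30.1 and 24.7 CPM in WT-labelled fed livers, 64.4, 61.5 and 46.4 CPM after fasting, 22.6, 25.5 and 30.9 CPM in KO-labelled fed livers, and 71.8, 79.2 and 37.9 CPM after fasting. Every fasted liver stood above every fed liver, with mouse 295 lowest among the fasted at 37.9 CPM and mouse 254 highest among the fed at 36.8 CPM. The average log2 fold change was 1.08 (SE 0.18, adjusted *p* = 0.000692), a ratio of 2.12. It was 0.91 in WT-labelled mice (SE 0.25, adjusted *p* = 0.0267) and 1.26 in KO-labelled mice (SE 0.25, adjusted *p* = 0.00594). The WT-labelled call was lost without mouse 257, 323, 265 or 282, with adjusted *p* from 0.0737 to 0.0873.

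*Hnrnpd*, which encodes AUF1 itself and lies on the same chromosome (99955935 to 99978938), rose by 0.44 on the log2 scale (SE 0.13, adjusted *p* = 0.0188). It stood at 29.8, 23.5 and 26.7 CPM in WT-labelled fed livers, 45.3, 39.4 and 32.1 CPM after fasting, 29.9, 36.6 and 25.7 CPM in KO-labelled fed livers, and 36.7, 49.1 and 31.2 CPM after fasting. The KO-labelled ranges overlapped, and without mouse 290 the adjusted *p* was 0.0515.

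*Hnrnpa1* (ENSMUSG00000046434, chromosome 15, 103240432 to 103244955) encodes the hnRNP best known for silencing exons. It stood at 57.0, 45.1 and 39.7 CPM in WT-labelled fed livers, 83.9, 72.9 and 50.4 CPM after fasting, 36.7, 43.3 and 46.7 CPM in KO-labelled fed livers, and 71.1, 94.2 and 76.9 CPM after fasting. Fasted KO-labelled livers were all above the fed ones, whereas WT-labelled fasted mouse 322 stood below fed mouse 254. The log2 fold change was 0.93 in KO-labelled mice (SE 0.19, adjusted *p* = 0.00515) and 0.55 in WT-labelled mice (SE 0.19, adjusted *p* = 0.0620), and the test of the difference gave 0.39 (SE 0.27, adjusted *p* = 0.901). The average of 0.74 (adjusted *p* = 0.000978) passed under every alternative. *Hnrnpab*, which encodes another relative of AUF1, rose by 0.31 (SE 0.09, adjusted *p* = 0.0141), with 89.3 to 119.8 CPM in fed livers and 125.2 to 143.9 CPM in fasted livers. It overlaps *Phykpl*, whose counts came to 12.7% of its own.

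*Hnrnpc* encodes a protein that binds uridine tracts of nascent RNA and blocks cryptic exons. It stood at 71.3, 69.7 and 98.9 CPM in WT-labelled fed livers, 58.5, 63.9 and 59.8 CPM after fasting, 84.5, 85.2 and 90.5 CPM in KO-labelled fed livers, and 64.4, 64.9 and 74.2 CPM after fasting. Fasted livers were lower without overlap within each genotype, though KO-labelled fasted mouse 295 stood above WT-labelled fed mice 254 and 257. Averaged over genotypes, the log2 fold change was -0.38 (SE 0.10, adjusted *p* = 0.00845), and that call held under every alternative.

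*Hnrnph3* belongs with *Hnrnph1*, *Hnrnph2* and *Hnrnpf* to the group that binds runs of guanine. It stood at 13.04, 9.5 and 10.7 CPM in WT-labelled fed livers, 7.5, 6.6 and 4.8 CPM after fasting, 7.9, 12.2 and 9.1 CPM in KO-labelled fed livers, and 8.8, 8.6 and 10.4 CPM after fasting. The 3 WT-labelled fasted livers were the lowest of all 12. The log2 fold change was -0.82 in WT-labelled mice (SE 0.21, adjusted *p* = 0.0145) and -0.07 in KO-labelled mice (SE 0.20, adjusted *p* = 0.860). The average call (-0.44, adjusted *p* = 0.0294) was lost without mouse 254, 282, 322, 303, 284 or 290, and the WT-labelled call without 254 or 322. *Rufy2* overlaps it with 35.6% of its counts. In the same group, the average log2 fold changes of *Hnrnph1*, *Hnrnph2* and *Hnrnpf* were 0.13, 0.02 and -0.07, and none of the 3 passed.

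The *Prpf* genes encode proteins that join the spliceosome at several steps, and 0 of 13 fell on average, beside 16.8% of all genes. *Prpf8*, which encodes the protein at the core of the spliceosome, had a log2 fold change of -0.20 (SE 0.12, adjusted *p* = 0.232).

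**Figure D4:**
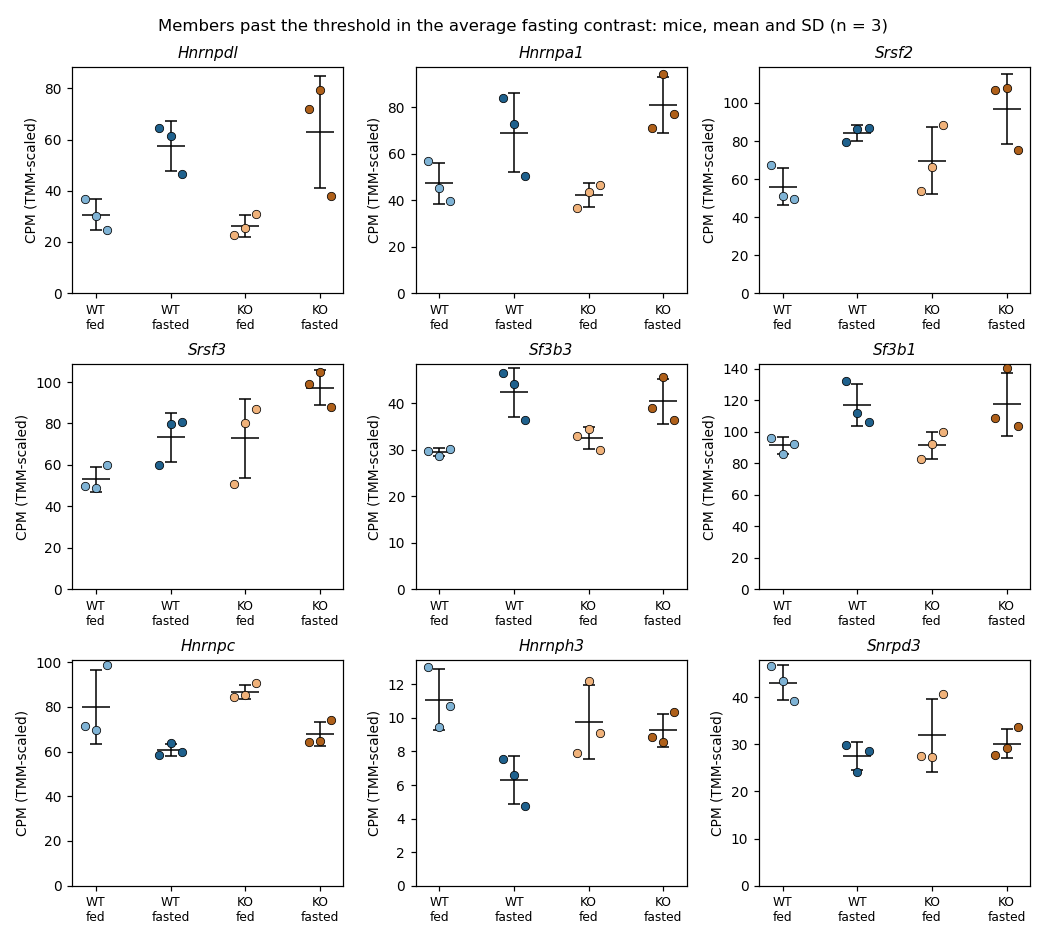
Level in CPM (y axis, from 0) of 9 genes past the threshold in the average fasting contrast, with 1 point per mouse in the 4 groups (x axis, by genotype label and feeding) and the group mean ± SD (n = 3). The 6 upper panels show genes that rose, from *Hnrnpdl* to *Sf3b1*, and the 3 lower panels genes that fell, of which *Hnrnph3* and *Snrpd3* stood apart in the WT-labelled livers and not in the KO-labelled ones.

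To show what lies upstream of the genes that moved, the 250 bases before each RefSeq gene start (GRCm38.p6) were searched for 5 motifs on both strands. Starts were listed for 56 of the 65 genes, matched by symbol. The CCAAT box, which NF-Y binds (CCAAT or its complement ATTGG), lay in this window for 28 of 56 genes, or 50%, beside 37.5% of all 27025 genes listed. The Ets motif CCGGAAGT was present for 14.3% (all genes 3.23%), the E-box CACGTG for 12.5% (6.86%) the CRE TGACGTCA for 3.57% (1.77%) and the GC box GGGCGG for 67.9% (35.4%). The median GC content of the windows was 59.6%, beside 52.4% for all. The 27025 genes were used whether or not they were tested in these livers, unlike the 56. A gene counted if any of its starts held the motif, with 76 windows for the 56 genes and 32851 for all. Among genes called in the average contrast, 5 of 9 higher and 2 of 5 lower genes with a listed start held a CCAAT box. For 7 of them, each with a single listed start, the 30 bases around the match nearest the start are given here, 5′ to 3′ on the strand of the gene, with the match in capitals, because matches stood before genes that moved in both directions.
Hnrnpa1 (higher, chr15:103240366-103240395, + strand): gggcggagtctaCCAATaccgagagcgagg
Srsf2 (higher, chr11:116853159-116853188, - strand): cggccgaatgggCCAATcaggagattcatt
Srsf3 (higher, chr17:29032590-29032619, + strand): gcgccgcctctgATTGGgtgatctggtcag
Sf3b3 (higher, chr8:110846938-110846967, - strand): ccgatcaaaaccATTGGaagtctattttta
Hnrnpab (higher, chr11:51606905-51606934, - strand): ggttcgctttgcCCAATgagagtatccgtt
Snrpd3 (lower, chr10:75517872-75517901, + strand): ttgggctccaggATTGGtgtttccggcggt
Hnrnpc (lower, chr14:52104058-52104087, - strand): gaaaagtcacagCCAATaggaacgcctcca

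The match began 19 bases before the RefSeq start of *Hnrnpa1*, 54 before that of *Hnrnpc* and 158 before that of *Snrpd3*. In the deposited positions *Snrpd3* spans 75517551 to 75537373, so its printed bases lie inside that span. *Hnrnpa1* and *Hnrnpc*, which moved in opposite directions, each held 4 matches in the window. *Hnrnpdl*, the gene with the largest rise, held the GC box in it and none of the other 4 motifs. These matches describe the letters of the window and not the binding of a factor.

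The second question was whether the genotype label mattered to these genes. At an adjusted *p* under 0.05, 0 of 65 genes differed between KO- and WT-labelled fed livers, 0 between the fasted ones, and 0 in the difference of the fasting responses. Over all genes tested the edgeR share was 0% in each. DESeq2 also called 0 of the 65, and 12, 4 and 3 of all genes. Without adjustment, *p* was under 0.05 for 7 of the 65 genes in fed livers (6.34% of all genes), for 7 in fasted livers (4.96%) and for 6 in the difference (4.80%). In fasted livers 47 of 65 genes had a positive log2 fold change, with a median of 0.08 beside -0.01 over all genes, and in fed livers 32 of 65 did, with a median of -0.00. The fasting and genotype contrasts use the same 12 mice, so their values for a gene are not independent of each other.

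The 7 genes at an unadjusted *p* under 0.05 in fasted livers were all higher in KO-labelled mice. They were *Hnrnph1*, *Hnrnph3*, *Hnrnpa2b1*, *Srsf9*, *Hnrnpm*, *Hnrnpa0* and *Srsf3*. Over all genes tested, 323 were higher and 362 lower at that unadjusted *p*. KO-labelled fasted livers lay wholly above WT-labelled fasted ones for 10 genes and wholly below for *Prpf31* alone, 1 gene, beside 5.29% and 6.88% of all genes. In fed livers, 3 genes at an unadjusted *p* under 0.05 were higher and 4 lower. The smallest p-values there belonged to *Prpf38b* (-0.52, SE 0.17, adjusted *p* = 0.734), *Snrpd3* (-0.44, SE 0.16, adjusted *p* = 0.734) and *Snrpf*, another Sm ring gene (-0.68, SE 0.25, adjusted *p* = 0.734). None of these differences passed.

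The smallest p-values for a difference of the fasting responses belonged to *Prpf38b*, *Hnrnph1* and *Hnrnpa2b1*. *Prpf38b*, which encodes a protein with an SR-like tail that joins the spliceosome before activation, stood at 29.2, 26.7 and 22.6 CPM in WT-labelled fed livers, 22.5, 16.9 and 18.1 CPM after fasting, 15.5, 18.2 and 21.2 CPM in KO-labelled fed livers, and 22.4, 28.4 and 19.5 CPM after fasting. It was lower after fasting in WT-labelled mice without overlap, and the KO-labelled ranges overlapped. Its log2 fold changes were -0.45 and 0.36, a difference of 0.82 (SE 0.24, adjusted *p* = 0.897).

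*Hnrnph1* stood at 42.3, 34.5 and 30.1 CPM in WT-labelled fed livers, 31.1, 26.4 and 30.6 CPM after fasting, 21.5, 28.1 and 37.5 CPM in KO-labelled fed livers, and 45.5, 44.8 and 36.7 CPM after fasting. KO-labelled fasted livers were above all WT-labelled fasted ones, and mouse 319 fed reached them. The difference of the responses was 0.82 (SE 0.26, adjusted *p* = 0.897).

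*Hnrnpa2b1* stood at 298.7, 306.8 and 306.4 CPM in WT-labelled fed livers, 257.9, 187.0 and 195.2 CPM after fasting, 215.9, 248.1 and 312.2 CPM in KO-labelled fed livers, and 268.4, 295.7 and 286.0 CPM after fasting. The WT-labelled fed livers were nearly equal, and all WT-labelled fasted livers were below them. Its fall in WT-labelled mice passed (-0.51, SE 0.16, adjusted *p* = 0.0369) but was lost without any one of mice 254, 257, 323, 282 and 322, with adjusted *p* up to 0.165. The difference of the responses was 0.64 (SE 0.22, adjusted *p* = 0.897). A further 3 genes had an unadjusted *p* under 0.05 for this difference, namely *Hnrnph3* (0.75), *Snrpd3* (0.57) and *Srsf5* (1.25), and all 6 log2 differences were positive. Over all genes tested, 354 differences were positive and 309 negative at that unadjusted *p*.

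Nuclear-retained RNAs varied among the same libraries. *Neat1*, the scaffold RNA of paraspeckles, stood at 140.0, 56.2 and 22.8 CPM in WT-labelled fed livers, 56.5, 44.5 and 21.9 CPM after fasting, 20.1, 52.1 and 72.0 CPM in KO-labelled fed livers, and 160.6, 275.2 and 45.9 CPM after fasting. Mice 290, 284 and 254 were highest. Mouse 290 was also highest for *Hnrnpdl*, *Hnrnpa1*, *Hnrnpd*, *Hnrnpab*, *Sf3b1*, *Srsf2*, *Srsf3* and *Srsf11*, whereas *Sf3b3* was highest in mouse 265. *Malat1*, a nuclear speckle RNA, stood at 156.3, 37.1 and 27.4 CPM, then 45.7, 22.4 and 16.1 CPM, then 24.0, 45.3 and 108.0 CPM, and then 124.7, 172.2 and 29.2 CPM. The 2 libraries with the most of the 4 listed nuclear-retained RNAs, mice 290 (449.9 CPM) and 254 (299.9 CPM), were the highest 2 for *Srsf5*. Of these 4 RNAs 0 passed in any contrast, and their difference of the fasting responses was positive for all 4, with a median of 2.496. Without adjustment, 2 of the 4 had a *p* under 0.05 between fasted groups and 1 in the difference. All differences of the fasting responses were also positive for markers of Kupffer cells and lymphocytes. In the other cell type lists they were positive for 0 of 5 erythroid markers (median -0.29) and 1 of 6 stellate cell markers. They were positive for 3 of 4 cholangiocyte, 4 of 6 sinusoidal endothelium and 4 of 7 hepatocyte markers. The 6 Kupffer cell markers summed to between 408.1 and 482.8 CPM in WT-labelled fed livers, 200.6 and 349.2 CPM after fasting, 250.3 and 349.1 CPM in KO-labelled fed livers, and 261.1 and 403.8 CPM after fasting, and 6 of 6 had a positive difference. Of these, *Clec4f* passed with lower levels after fasting in WT-labelled mice (-0.86, adjusted *p* = 0.00569) and on average (-0.66, adjusted *p* = 0.00134). *Marco* stood at 103.9 CPM in KO-labelled fasted mouse 290, against 7.5 and 10.2 CPM in mice 284 and 295. The 8 lymphocyte markers summed to between 7.45 and 9.75, 6.62 and 7.70, 6.11 and 10.6, and 6.09 and 11.5 CPM in the same groups, with 8 of 8 differences positive (median 0.37), and 0 passed in any contrast. The part of any of these lists in the results above was not tested.

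**Figure D5:**
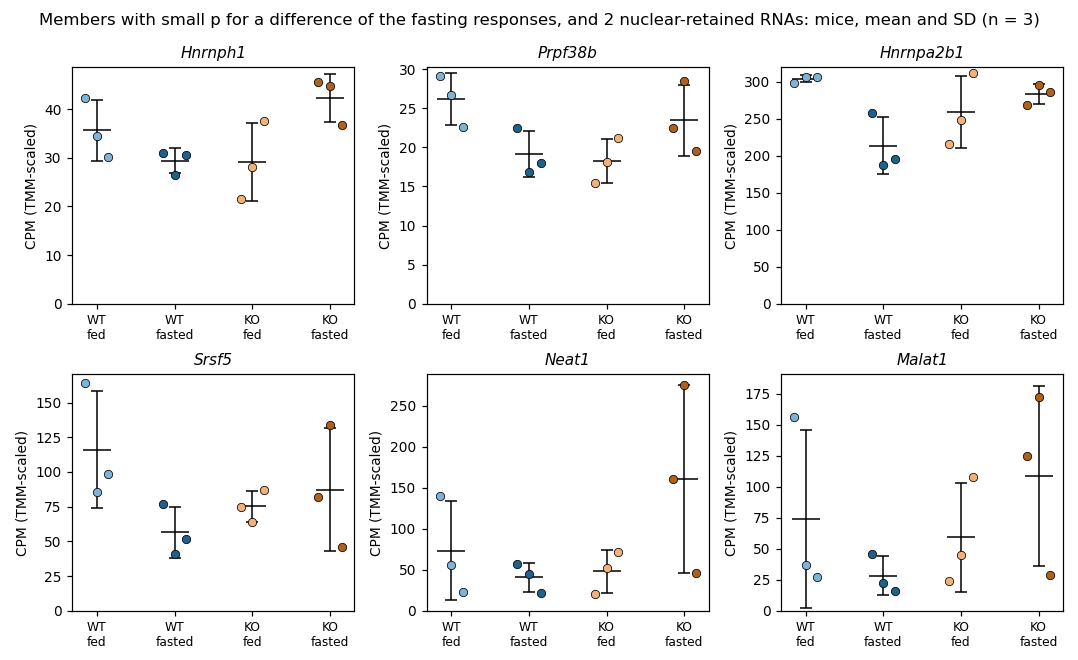
Level in CPM (y axis, from 0) of *Hnrnph1*, *Prpf38b*, *Hnrnpa2b1* and *Srsf5*, and of the nuclear RNAs *Neat1* and *Malat1*, with 1 point per mouse in the 4 groups (x axis) and the group mean ± SD (n = 3). The WT-labelled mean is lower after fasting in each of the 6 panels and the KO-labelled mean is higher, with mouse 290 at 275.2 CPM of *Neat1* and 133.7 CPM of *Srsf5*.

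Other RNA-processing genes give the surroundings. Of 66 other spliceosome components, present on 67 rows, 4 rose and 3 fell with fasting on average, or 10.4% beside 32.8% of all genes. *Snrnp25*, which encodes a protein of the minor U11/U12 snRNP, fell from between 1.51 and 2.39 CPM in fed livers to between 0.664 and 0.969 CPM in fasted livers, a log2 fold change of -1.21 (SE 0.18, adjusted *p* = 0.000263). *Snrnp48*, of the same particle, fell by 0.50 (adjusted *p* = 0.00567), and *Lsm6*, of the U6 ring, by 0.53 (adjusted *p* = 0.00172). *Ddx46* and *Dhx8*, which encode spliceosomal helicases, rose by 0.53 and 0.26, the latter call being lost without mouse 254, 282, 303 or 295 and with no filter on low counts (adjusted *p* up to 0.0708). *Dhx15* and *Rnpc3* also passed, at 0.23 and 0.37.

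Of 63 splicing regulators and SR protein kinases tested, 15 rose and 3 fell, or 28.6%. *Celf2*, which encodes a regulator binding GU-rich RNA, rose from between 4.75 and 7.60 CPM in fed to between 9.57 and 20.6 CPM in fasted livers (1.12, SE 0.16, adjusted *p* = 0.000214). *Khdrbs3*, of the STAR family, rose from between 18.7 and 23.6 CPM to between 28.3 and 33.3 CPM (0.58, SE 0.08, adjusted *p* = 0.000164). *Pcbp2* and *Matr3* rose by 0.51 and 0.47, and *Ddx17*, a helicase gene, fell by 0.81. The other 2 that fell were *Tra2a* (-0.89) and *Taf15* (-0.65). The exon junction and export list had 6 of 21 higher, among them *Upf1*, *Ncbp1*, *Thoc3* and *Alyref*, and 1 lower, *Ncbp2*, together 33.3% beside 32.8% of all genes. The call of *Alyref* was lost under 7 of 17 alternatives (adjusted *p* up to 0.0923) and that of *Thoc3* without mouse 254, 277 or 303 (up to 0.0590).

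Both listed cold-inducible RNA-binding protein genes, whose products bind mRNA and rise when body temperature falls, were higher after fasting. *Rbm3* stood at 19.8, 13.6 and 10.5 CPM in WT-labelled fed livers, 94.4, 73.6 and 71.0 CPM after fasting, 10.1, 20.7 and 20.3 CPM in KO-labelled fed livers, and 107.0, 104.7 and 94.8 CPM after fasting. Fed and fasted ranges were far apart in both genotypes. The average log2 fold change was 2.51, with 2.44 in WT-labelled and 2.59 in KO-labelled mice. *Cirbp* rose by 1.19 (adjusted *p* = 0.0134), with mouse 265 highest at 33.4 CPM.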

How the data were processed

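Liver RNA of 12 mice was sequenced, and the authors deposited 1 table of expected counts per gene, with positions in GRCm38. The labels name Trimmomatic and RSEM, and whether counting used strand is not given in the sources used here. Columns of other samples numbered 0. Of the expected counts of the 65 genes, 31.4% were not whole. For some genes, among them *Hnrnpa1*, *Hnrnpab*, *Hnrnpc*, *Srsf2* and *Srsf3*, they were not whole in any of the 12 libraries. Expected counts were rounded and tested in R 4.3.3 with the edgeR 4.0.16 quasi-likelihood test (filterByExpr, TMM normalization, 1 mean per group, all mice in 1 fit), with Benjamini-Hochberg adjustment over the 13812 genes tested and a threshold of 0.05. CPM is scaled by TMM. A floor of 3 counts lies between 0.0663 and 0.136 CPM, and covers counting error only. Lengths are those of the canonical transcripts of GENCODE vM39, and promoter bases are from RefSeq. The 65 genes and all lists were chosen with earlier results of these data known. Genes named are up to 6 per family past the threshold in any contrast, the 3 smallest p-values of each genotype contrast, the highest of each family, and up to 5 per list. Values of 1 gene are not reported here, although it is counted. Any other gene (such as *Snrpn* and *Snrpert*) was chosen after its values were seen, as was the closer description of *Srsf5*. The test was tried on simulated data with known changes. Alternatives were RLE and upper-quartile normalization, DESeq2 1.42.0, other count filters, only the mice compared, a threshold of 0.1, and each mouse left out.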

Additional observations from a re-analysis of the deposited data

How the results depend on the processing

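The number of the 65 genes past the threshold in the fasting contrasts moved by more than 1.5 times under several settings, among them single mice left out. In WT-labelled mice, where 7 passed, 18 did so at a threshold of 0.1 and 11 with DESeq2, and leaving out single mice gave 2 to 8. In KO-labelled mice, where 2 passed, 9 did so at a threshold of 0.1, 5 with DESeq2 and 4 with no filter on low counts, and leaving out single mice gave 2 to 5. Averaged over genotypes, where 15 passed, leaving out single mice gave 9 (without mouse 290) to 19 (without mouse 323), and the other settings gave 14 to 20. Between genotype labels and in the difference of the responses the count was 0 under every setting, and 0 to 0 with single mice left out.

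Of 1015 repeats of 70 gene results, 896 stayed on their side of the threshold, 119 no longer passed and 0 changed sign. The 70 include genotype and difference results that had not passed and so had no call to lose. They also include results of listed genes outside the 65. The median fold change of the 65 genes moved by more than the SD between mice (0.0676) in 2 of 82 repeats. No paired analysis was possible because mouse numbers only identify animals. The mice were littermates per the study's methods, and no label gives the litter of a mouse, so litters shared between groups were not tested. Counts of *Nts* went against the genotype labels under any setting, since they are as deposited.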

Other observations

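The region around *Snrpn* on chromosome 7 was looked at after its 0 counts in KO-labelled fed mouse 303 were seen. *Snurf* had 0 counts in that mouse and 1 to 13 in the other 11, *Gm38393* had 0 and 1 to 8, and *Snhg14*, the host transcript of the local small nucleolar RNAs, had 1 and 5 to 34. Neighbouring genes stayed within the range of the other livers, with 1846 counts of *Ube3a* (1090 to 2417 elsewhere), 19 of *Ndn* (2 to 42), 4 of *Mkrn3* (2 to 10) and 4 of *Peg12* (1 to 11). In GRCm38 *Snrpn* spans 59982495 to 60140219, *Snhg14* 59307924 to 59975759 and *Ndn* 62346569 to 62350262. No cause was tested.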
